A study of Homo sapiens with 4 samples.

Results

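The 10 genes described here carry transforming growth factor beta (TGF-beta) signals from the cell surface to the nucleus. They are SMAD1 to SMAD7, the receptor genes TGFBR1 and TGFBR2, and SKIL, and they were taken by symbol from the 25702 genes listed for each library. The libraries came from K562, an established human chronic myeloid leukemia line with erythroid features, labelled as untreated. In 2 libraries the cells were transfected with the LeGO-iG2 plasmid expressing the fusion RUNX1::ERG, and in the other 2 with the empty LeGO-iG2 plasmid, which co-expresses green fluorescent protein in both groups. The sources used here describe no sorting of transfected cells before RNA extraction, so each library can hold RNA of untransfected cells, and fewer cells of a kind cannot be told apart from less RNA per cell. The comparison asks which genes of this pathway differed in K562 cells when the fusion was present.

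TGF-beta family ligands are secreted proteins, and TGF-beta itself is stored in a latent form that must be activated. An active ligand joins type II and type I receptors, and the type I receptor phosphorylates receptor-regulated SMADs, SMAD2 and SMAD3 for TGF-beta and activin, and SMAD1, SMAD5 and SMAD9 for bone morphogenetic proteins (BMPs). These enter the nucleus with SMAD4, while SMAD6 and SMAD7 inhibit the pathway and SKIL is a corepressor that binds SMADs. In blood formation TGF-beta is known for restraining the growth of progenitors, and platelets are a rich store of it.

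The labels were checked first with the genes of the fusion. ERG had 4 counts in each empty vector library, against 80443 counts in RUNX1::ERG replicate 1 and 27218 in replicate 2. RUNX1 had 4736 and 3453 counts with the empty vector, and 66232 and 28769 in RUNX1::ERG replicates 1 and 2. Both genes were far higher in the RUNX1::ERG libraries, and higher in replicate 1 of that group than in replicate 2. The 8 K562 markers, led by embryonic and fetal globin genes, summed to between 11889 and 14143 normalized CPM (counts of a gene per 1000000 counts, after TMM scaling) in the 4 libraries. The sum hides differences between markers. In the main comparison described below, 1 of the 8 rose, TAL1 (log2 fold change 0.68), and 0 fell. HBZ and TFRC were at -0.59 and -0.57, not past the threshold, and the remaining markers ran from 0.07 to 0.27. Library totals ran from 59695387 to 82352144 counts. The limit that a count of 0 allows, 3 counts, was at most 0.0503 CPM. It is for counting error only, with each count taken as independent.

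By edgeR's quasi-likelihood test, 0 of the 9 members that passed the filter on low counts had a Benjamini-Hochberg adjusted p under the threshold of 0.05, against 4.79% of the 15394 genes tested, 3.64% higher and 1.15% lower. The count at an unadjusted p under 0.05 was 1, TGFBR1, against 18.0% of all genes tested. The DESeq2 Wald test called 1 member, with 1194 genes called in all, and limma voom 0, with 688 in all. The quasi-likelihood test called 737 genes in all. Both RUNX1::ERG libraries lay above both empty vector libraries in 2 of the 9 tested members, TGFBR1 and SKIL, and below them in 0. Over all genes tested the groups did not overlap in 25.1% with RUNX1::ERG higher and in 22.1% with it lower, so the share of members with RUNX1::ERG higher was near that of all genes. The median log2 fold change of the 9 members was 0.09, and that of all tested genes was 0.00. SMAD1 was the member that did not pass the filter.

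The fusion keeps the DNA-binding domains of both RUNX1 and ERG, so the promoters were searched for letters that RUNX and ETS proteins are known to bind. Those of SMAD6 and TGFBR1, the 2 tested members with the largest fitted differences, are shown. Each run holds the 250 bases before the first start that RefSeq lists on GRCh38.p14, read 5′ to 3′ on the plus strand. SMAD6 is at chr15:66701986-66702235 and TGFBR1 at chr9:99104863-99105112. Capitals mark the letters GTCTAGAC, a palindrome that SMAD proteins are known to bind.
SMAD6: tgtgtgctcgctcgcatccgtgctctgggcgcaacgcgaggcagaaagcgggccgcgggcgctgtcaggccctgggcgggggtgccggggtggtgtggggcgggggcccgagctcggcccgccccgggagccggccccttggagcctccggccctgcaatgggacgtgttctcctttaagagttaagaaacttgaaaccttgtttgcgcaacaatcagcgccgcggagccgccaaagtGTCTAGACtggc
TGFBR1: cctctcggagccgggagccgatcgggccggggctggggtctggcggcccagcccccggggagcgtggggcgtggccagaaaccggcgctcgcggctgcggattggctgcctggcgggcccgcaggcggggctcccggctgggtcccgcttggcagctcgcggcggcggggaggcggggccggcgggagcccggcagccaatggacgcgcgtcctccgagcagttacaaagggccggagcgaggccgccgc
The palindrome ended 5 bases before the SMAD6 start, and it was found in 48 of 27305 promoters of the same length, or 0.176%. Neither promoter held the RUNX letters TGTGGT or TGCGGT or the ETS letters CCGGAAG or CAGGAAG on either strand. Among the members, 2 of 10 promoters held a RUNX run, those of SMAD4 and SMAD5, and 0 of 10 an ETS run, against 16.1% and 18.6% of all promoters. These letters were chosen with the results known, other starts of the genes were not searched, and a match describes letters only.

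The type I receptor TGFBR1 (NCBI gene 7046, chromosome 9 of GRCh37, 101866320 to 101916474) was measured at 61.5 and 74.5 normalized CPM in empty vector replicates 1 and 2, and at 97.6 and 116 in RUNX1::ERG replicates 1 and 2. Both RUNX1::ERG libraries were above both empty vector libraries, and replicate 2 was the higher library in each group. The means were 68.0 ± 9.23 and 107 ± 13.0 (SD, n = 2). The log2 fold change was 0.65 with a standard error (SE) of 0.17 and a 95% interval from 0.27 to 1.03, and its adjusted p was 0.059. The call depended on the processing. TGFBR1 passed the threshold with the DESeq2 Wald test (adjusted p = 0.023), with library totals alone (0.043) and without the filter on low counts (0.0099), which was the lowest of the unblocked alternatives. It also passed without empty vector replicate 2 (log2 fold change 0.80, adjusted p = 0.013), and without RUNX1::ERG replicate 2 it was at 0.51 with an adjusted p of 0.28, the highest.

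TGFBR2, the type II receptor that binds TGF-beta and activates TGFBR1 (NCBI gene 7048, chromosome 3, 30648093 to 30735634), was close to the lower end of what was tested. It had 76 and 32 counts with the empty vector, and 108 and 63 in RUNX1::ERG replicates 1 and 2, or 1.26, 0.454, 1.28 and 0.876 normalized CPM. The groups overlapped, and the 2 empty vector libraries lay farther apart than the group means of 0.858 ± 0.571 and 1.08 ± 0.286 (SD, n = 2). The log2 fold change of 0.34 was smaller than its SE of 0.53 (adjusted p = 0.81). It was 1.25 without empty vector replicate 1 and -0.22 without empty vector replicate 2.

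**Figure D1:**
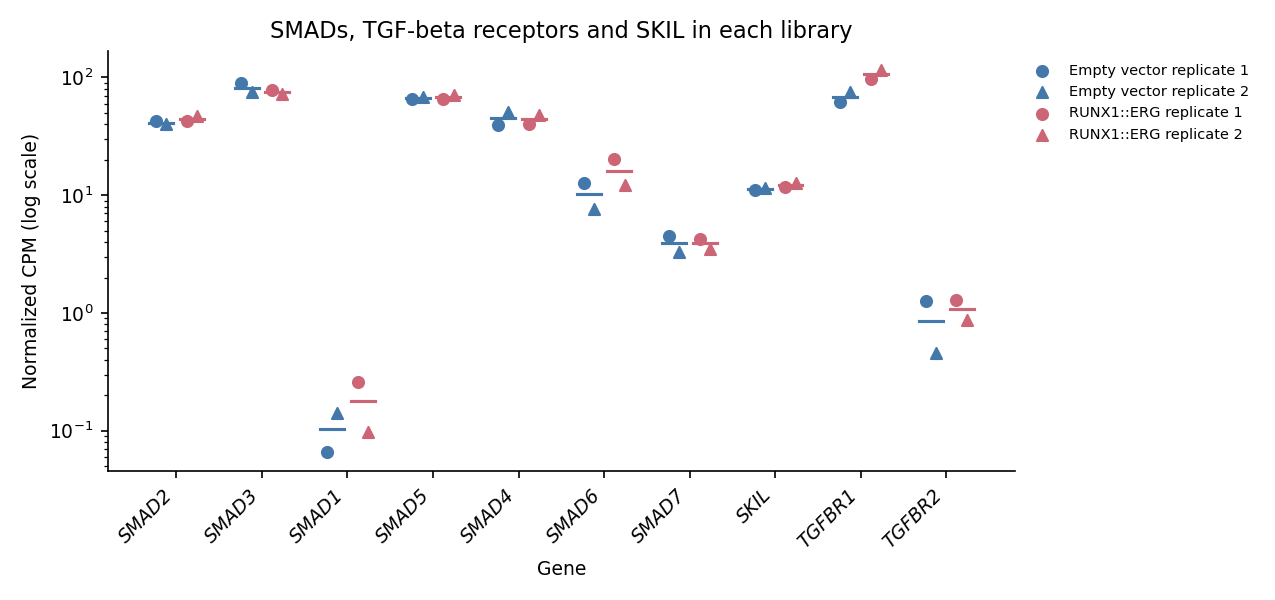
Normalized CPM of the 10 members (log axis) in each library, with circles for replicate 1, triangles for replicate 2 and a line at each group mean. TGFBR1 lay at 61.5 and 74.5 with the empty vector and at 97.6 and 116 with RUNX1::ERG, while SMAD1 and TGFBR2 were the lowest members.

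Of the SMADs of the TGF-beta and activin branch, SMAD2 (NCBI gene 4087, chromosome 18, 45335328 to 45457517) was at 42.3 and 40.0 normalized CPM in the empty vector libraries and at 42.3 and 46.7 in the RUNX1::ERG libraries. SMAD3 (NCBI gene 4088, chromosome 15, 67356101 to 67487511) was at 89.1 and 74.7, and at 78.9 and 72.9 in the same order. For both genes the groups overlapped, and the fitted differences had opposite signs. The log2 fold change was 0.11 for SMAD2 (95% interval -0.26 to 0.48, adjusted p = 0.81) and -0.11 for SMAD3 (95% interval -0.47 to 0.25, adjusted p = 0.80).

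SMAD5 was the main SMAD of the BMP branch in these cells (NCBI gene 4090, chromosome 5, 135468534 to 135524435), at 65.5 and 68.4 normalized CPM with the empty vector and 65.5 and 71.6 with RUNX1::ERG. Its log2 fold change of 0.03 had a 95% interval from -0.31 to 0.38, the narrowest of the 9 members. SMAD1, the other member of that branch (NCBI gene 4086, chromosome 4, 146402346 to 146480328), had 4 and 10 counts with the empty vector and 22 and 7 with RUNX1::ERG, 1 of the 4 libraries standing above the rest. Without a filter its log2 fold change was 0.76 with an adjusted p of 0.80 from edgeR's quasi-likelihood test. SMAD9, which shares their role and was listed among the other pathway genes, was as low, at 8, 4, 20 and 4 counts.

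SMAD4, the common partner of both branches (NCBI gene 4089, chromosome 18, 48554898 to 48611415), was at 39.4 and 50.5 normalized CPM with the empty vector, against 40.3 and 47.9 with RUNX1::ERG. In both groups replicate 2 was the higher library, and the group means of 44.9 ± 7.79 and 44.1 ± 5.33 (SD, n = 2) differed by less than that spread. The log2 fold change was -0.03 (95% interval -0.44 to 0.39).

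Of the inhibitory SMADs, SMAD6, known as an inhibitor of BMP signals (NCBI gene 4091, chromosome 15, 66994574 to 67075187), was at 12.8 and 7.71 normalized CPM in empty vector replicates 1 and 2, and at 20.2 and 12.2 in RUNX1::ERG replicates 1 and 2. Replicate 1 was the higher library in each group, and empty vector replicate 1 lay just above RUNX1::ERG replicate 2. The log2 fold change of 0.66 (SE 0.30, 95% interval -0.01 to 1.32) had an adjusted p of 0.28. It rested on single libraries, being 1.07 when empty vector replicate 1 was left out (adjusted p = 0.0051) and 0.97 when RUNX1::ERG replicate 2 was. Leaving out the other library of each group gave 0.34 (empty vector) and 0.25 (RUNX1::ERG, adjusted p = 0.87).

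SMAD7, which inhibits both branches and is itself a known target of the pathway (NCBI gene 4092, chromosome 18, 46446223 to 46477335), was at 4.52 and 3.32 normalized CPM with the empty vector, against 4.28 and 3.49 with RUNX1::ERG. The groups overlapped, with a log2 fold change of -0.01 and a 95% interval from -0.67 to 0.65. SKIL (NCBI gene 6498, chromosome 3, 170075130 to 170114623) was at 11.1 and 11.6 with the empty vector and 11.7 and 12.6 with RUNX1::ERG. Its groups did not overlap, but the log2 fold change was 0.09 (95% interval -0.37 to 0.55, adjusted p = 0.88).

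**Figure D2:**
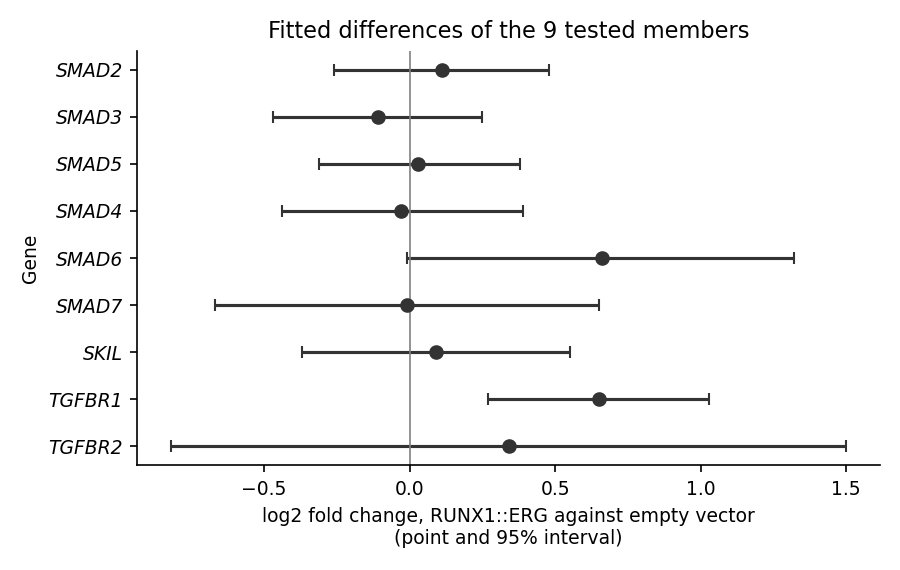
Log2 fold change of RUNX1::ERG against the empty vector for the 9 tested members (x axis), with bars for the 95% interval of edgeR's fit. The interval of TGFBR1, from 0.27 to 1.03, lies above 0 before adjustment for the number of genes, and those of the other 8 members include 0.

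Levels were compared between genes only after division by length. Per kilobase of the canonical transcript in GENCODE v44 on GRCh37, the mean empty vector level in normalized CPM was 12.7 for SMAD3, 10.5 for TGFBR1, 9.55 for SMAD5, 5.12 for SMAD4, 2.68 for SMAD6, 1.59 for SKIL, 1.19 for SMAD2, 1.17 for SMAD7, 0.189 for TGFBR2 and 0.0347 for SMAD1. On this scale the empty vector libraries of TGFBR1 and SMAD5 overlapped, as did those of SMAD2 and SMAD7, and those of the other neighbours in this order did not. The place of SMAD2 depended on the length used. Its canonical transcript is 34.6 kb long, of which 1.40 kb is coding, and per kilobase of coding sequence it came next after TGFBR1, at 29.4 against 45.1. On the coding scale the overlapping neighbours were SMAD5 and TGFBR1, SMAD2 and SMAD4, and SMAD6 and SKIL.

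TGFBR1 lay below SMAD3 in both empty vector libraries and above it in both RUNX1::ERG libraries, on both length scales. Per kilobase of transcript, the empty vector libraries held TGFBR1 at 9.47 and 11.5 and SMAD3 at 13.8 and 11.6, and the RUNX1::ERG libraries held TGFBR1 at 15.0 and 17.9 and SMAD3 at 12.2 and 11.3. The receptor pair was uneven in every library, with TGFBR2 at 0.283 or less on that scale and TGFBR1 at 9.47 or more. The counting annotation is not given in the sources used here, so these levels depend on the transcript chosen.

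**Figure D3:**
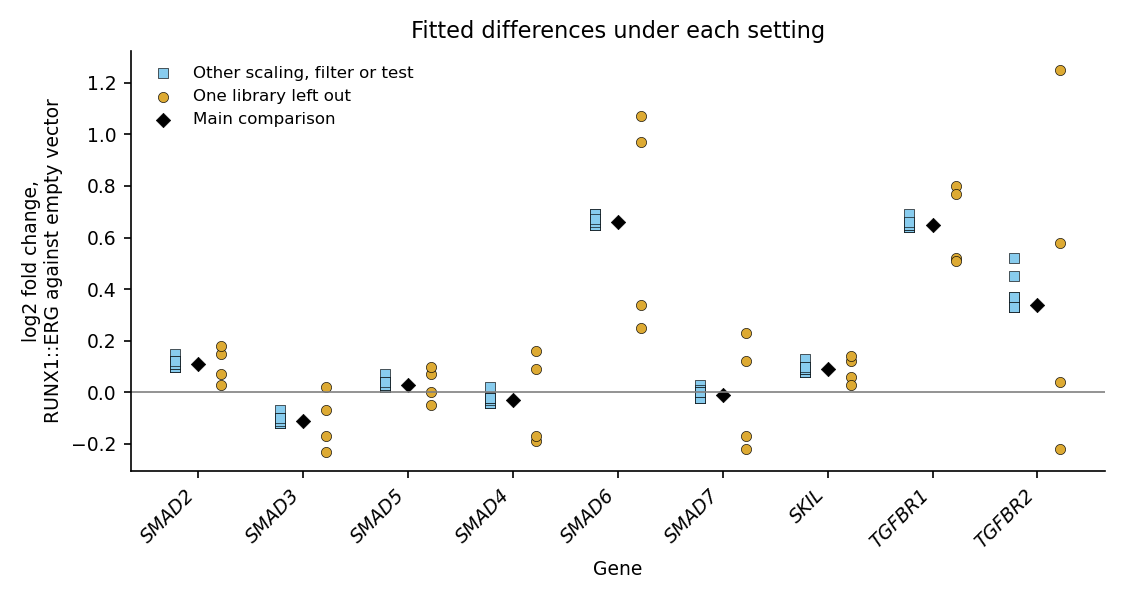
Log2 fold changes of the 9 tested members (y axis) in the main comparison (diamonds), with 1 library left out (circles) and under another scaling, filter or test (squares). SMAD6 ran from 0.25 to 1.07 and TGFBR2 from -0.22 to 1.25 when a library was left out, and TGFBR1 from 0.51 to 0.80.

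The rest of the pathway was described with 8 lists of 146 genes, of which 105 passed the filter. By edgeR's quasi-likelihood test 15 rose and 2 fell, against 3.64% and 1.15% of all genes tested, and the median log2 fold change was 0.12. DESeq2 called 16 of these 17 and 1 further gene, STUB1, and limma voom called 15 of the 17. INHBE was called by neither, and FN1 was not called by limma voom. Without RUNX1::ERG replicate 1 the number was 11. The calls lay among ligands, their storage and activation, receptors, co-receptors and target genes, and 0 lay among the 16 tested nuclear partners and corepressors, the 21 tested genes of receptor and SMAD turnover and the 5 tested ligand antagonists. In those 3 lists 3, 2 and 1 genes had an unadjusted p under 0.05, beside the 18.0% of all genes. In the same lists limma voom called 0 and DESeq2 called 0, 1 and 0.

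**Figure D4:**
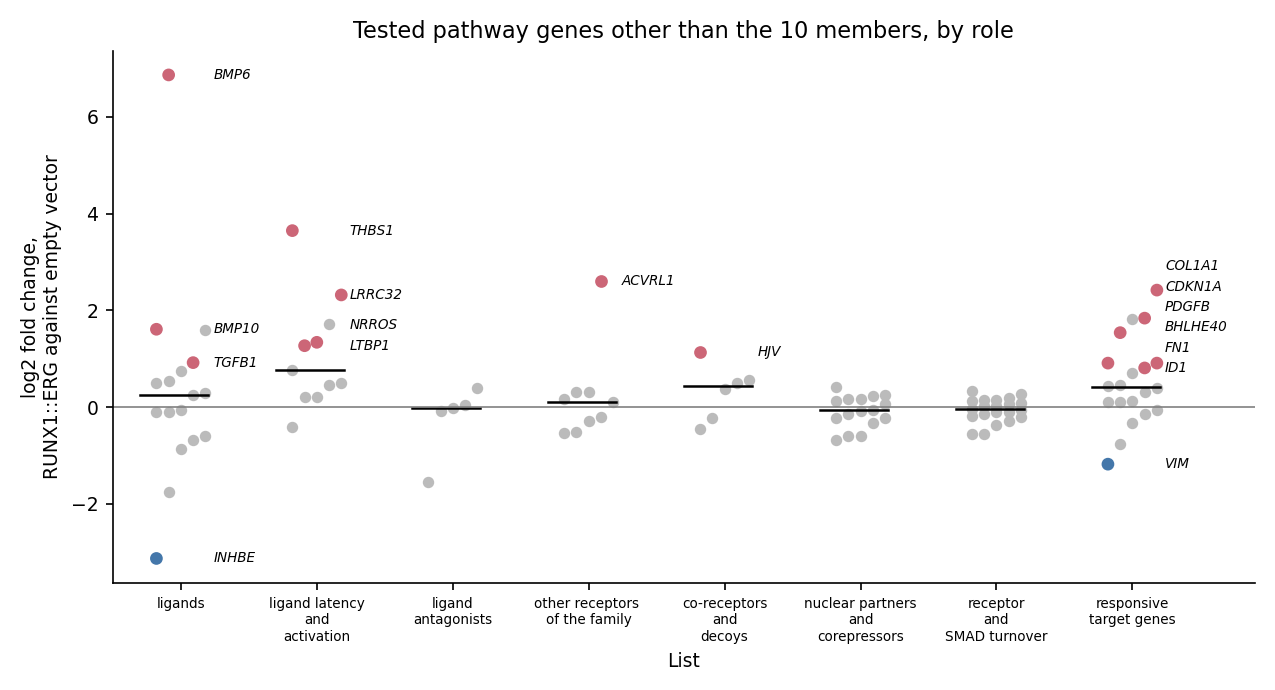
Log2 fold change of RUNX1::ERG against the empty vector (y axis) for the 105 tested pathway genes in 8 lists, with a line at each list's median. Red points rose, blue points fell and gray points had an adjusted p of 0.05 or more, and the named genes are the 15 that rose and the 2 that fell. The height of BMP6 depends on the prior count of the fit.

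Of the 17 tested ligands, 3 rose and 1 fell, against 3.64% and 1.15% of all genes tested. The median log2 fold change was 0.26. TGFB1, the main TGF-beta ligand of blood cells, was at 269 and 239 normalized CPM with the empty vector, against 596 and 367 in RUNX1::ERG replicates 1 and 2. Both RUNX1::ERG libraries were higher, replicate 1 by more, and the log2 fold change was 0.92 (adjusted p = 0.034, SE 0.21). Without RUNX1::ERG replicate 1 it was 0.53 with an adjusted p of 0.26. BMP6, a BMP known from the control of iron balance, had 2 and 0 counts with the empty vector, and 212 and 108 with RUNX1::ERG. Summed over each group, the ratio of normalized counts was 134, with a 95% counting interval from 36.8 to 1111. That interval covers counting error only and takes each count as independent. Small counts were mostly even in these libraries, so it can be too narrow.

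BMP10, a ligand of the type I receptor ACVRL1, rose from 1.08 and 1.09 to 3.33 and 3.33 normalized CPM, a log2 fold change of 1.61 (adjusted p = 0.020), which lost its call without either RUNX1::ERG library at about the same size, 1.61 and 1.60. INHBE, an activin subunit, fell from 58.6 and 5.28 to 3.52 and 3.78. That fall rested on empty vector replicate 1: the log2 fold change of -3.13 (adjusted p = 0.046) was -0.53 without it.

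Of the 11 tested genes of ligand storage and activation, 4 rose and 0 fell, against 3.64% and 1.15% of all genes tested. The median log2 fold change was 0.76, and 8 of the 11 had an unadjusted p under 0.05, against 18.0% of all genes tested. Both RUNX1::ERG libraries lay above both empty vector libraries in 8 of them, against 25.1% of all genes tested. The list was chosen with earlier results of these data known, so these counts describe it and are no independent support. THBS1, thrombospondin 1, an activator of latent TGF-beta, was at 1.45 and 2.50 normalized CPM with the empty vector, against 23.4 and 26.2 with RUNX1::ERG, a log2 fold change of 3.65 (adjusted p = 7.3e-05, SE 0.29). LTBP1, which holds latent TGF-beta in the matrix, was at 81.2 and 78.3, and at 183 and 203, a log2 fold change of 1.27 (adjusted p = 0.0011, SE 0.15). Both genes kept their calls under every alternative run.

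LRRC32 and NRROS, which tether latent TGF-beta to the cell surface, rose as well. NRROS went from 9.50 and 15.7 to 36.3 and 27.5 normalized CPM, a log2 fold change of 1.34 (adjusted p = 0.016), with an adjusted p of 0.052 without RUNX1::ERG replicate 1. LRRC32 stayed low, at 10 and 16 counts against 74 and 80, a log2 fold change of 2.32 (adjusted p = 0.031), and its adjusted p was 0.093 and 0.14 without RUNX1::ERG replicate 1 and 2.

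Markers of megakaryocytes, the cells that make platelets, moved with these genes. The 9 markers summed to 74.3 and 85.0 normalized CPM with the empty vector and to 491 and 429 with RUNX1::ERG. Of the 6 tested, 5 rose, against 3.64% of all genes tested. The late platelet markers GP9, GP1BB and TREML1 had at most 2 counts in any library. GP1BA, of the same platelet receptor complex as GP9 and GP1BB, had 62 and 44 counts with the empty vector and 158 and 71 with RUNX1::ERG. Its groups overlapped, and its log2 fold change of 0.80 had an adjusted p of 0.42. The 4 monocyte markers summed to 7.24 and 10.4 with the empty vector and to 22.1 and 20.8 with RUNX1::ERG, where CD14 and LYZ rose and FCN1 had at most 2 counts. The 4 T cell markers, mostly CD3D, summed to 25.2 or more in each library, none of them past the threshold, and the 3 B cell markers to 2.06 or less. The part of such cells in the rise of the TGF-beta storage genes was not tested.

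Of the 9 tested receptors of the TGF-beta family other than the 2 members, 1 rose and 0 fell, against 3.64% and 1.15% of all genes tested. ACVRL1, the type I receptor known from endothelium, was at 0.946 and 0.567 normalized CPM with the empty vector, against 5.02 and 4.10 with RUNX1::ERG, a log2 fold change of 2.60 (adjusted p = 0.0029, SE 0.37). It kept its call under every alternative run. ENG, the co-receptor that works with ACVRL1, was at 1.78 and 0.964, and at 2.17 and 1.36, with overlapping groups and a log2 fold change of 0.37 (95% interval -0.57 to 1.31).

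The endothelial markers CDH5, PECAM1, VWF and KDR summed to 3.20 and 3.15 normalized CPM with the empty vector and to 27.3 and 28.8 with RUNX1::ERG. PECAM1 and VWF made up nearly all of it, KDR had at most 2 counts in a library and CDH5 at most 27. The part of other cells in the rise of ACVRL1 was not tested.

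The remaining receptors had smaller fitted differences. The activin receptors ACVR1B and ACVR2B had log2 fold changes of -0.54 (adjusted p = 0.17) and -0.51 (adjusted p = 0.26). Without empty vector replicate 2, ACVR2B was at -0.77. ACVR2A was at -0.29. Of the 9 tested receptors, 3 had both RUNX1::ERG libraries below both empty vector libraries (ACVR1B, ACVR2A and ACVR2B), against 22.1% of all genes tested. In 3 others, ACVRL1 and BMPR2 among them, they lay above, against 25.1%. The BMP receptors BMPR1A and BMPR2 were at 0.10 and 0.32, and ACVR1 at 0.16, none past the threshold.

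Among the 6 tested co-receptors and decoys, HJV, the BMP co-receptor hemojuvelin, rose from 20.3 and 15.4 to 41.5 and 36.5 normalized CPM, a log2 fold change of 1.13 (adjusted p = 0.010, SE 0.20). BAMBI, a receptor decoy and known BMP target, was at 23.6 and 31.4, and at 38.6 and 38.5. Its log2 fold change was 0.49 (adjusted p = 0.21), and 0.71 without empty vector replicate 2. The corepressors SKI and TGIF1 had log2 fold changes of -0.06 and -0.23, and the ubiquitin ligase SMURF2, which marks receptors and SMADs for breakdown, was at -0.36 (95% interval -0.80 to 0.08). PMEPA1, a feedback inhibitor induced by TGF-beta, had 0, 10, 4 and 0 counts and was not tested.

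Of the 20 tested target genes, 6 rose and 1 fell, against 3.64% and 1.15% of all genes tested. The median log2 fold change was 0.42. ID1, a classic BMP target that blocks basic helix-loop-helix factors, was at 75.4 and 76.0 normalized CPM with the empty vector, against 156 and 109 with RUNX1::ERG, a log2 fold change of 0.81 (adjusted p = 0.036). Without RUNX1::ERG replicate 1 it was at 0.53 with an adjusted p of 0.25.

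The other rises were in genes that many signals control. The cell cycle inhibitor CDKN1A had a log2 fold change of 1.84 and the growth factor gene PDGFB one of 1.54. The transcription factor gene BHLHE40 and the fibronectin gene FN1 were both at 0.91. FN1 was at 0.54 without RUNX1::ERG replicate 2 (adjusted p = 0.33) and BHLHE40 at 0.72 without replicate 1 (adjusted p = 0.074). The intermediate filament gene VIM, which TGF-beta is known to raise, fell from 706 and 827 to 312 and 365 normalized CPM, a log2 fold change of -1.18 (adjusted p = 0.0017).

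COL1A1, a collagen gene, rose from 4.13 and 3.62 to 22.0 and 19.6 normalized CPM, a log2 fold change of 2.42. Its partner chain COL1A2 was at 1.96 and 2.58, and at 2.52 and 2.38, and the other fibroblast markers COL3A1 and DCN were at 0.142 normalized CPM or less in each library. The part of other cells in the rise of COL1A1 was not tested.

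**Figure D5:**
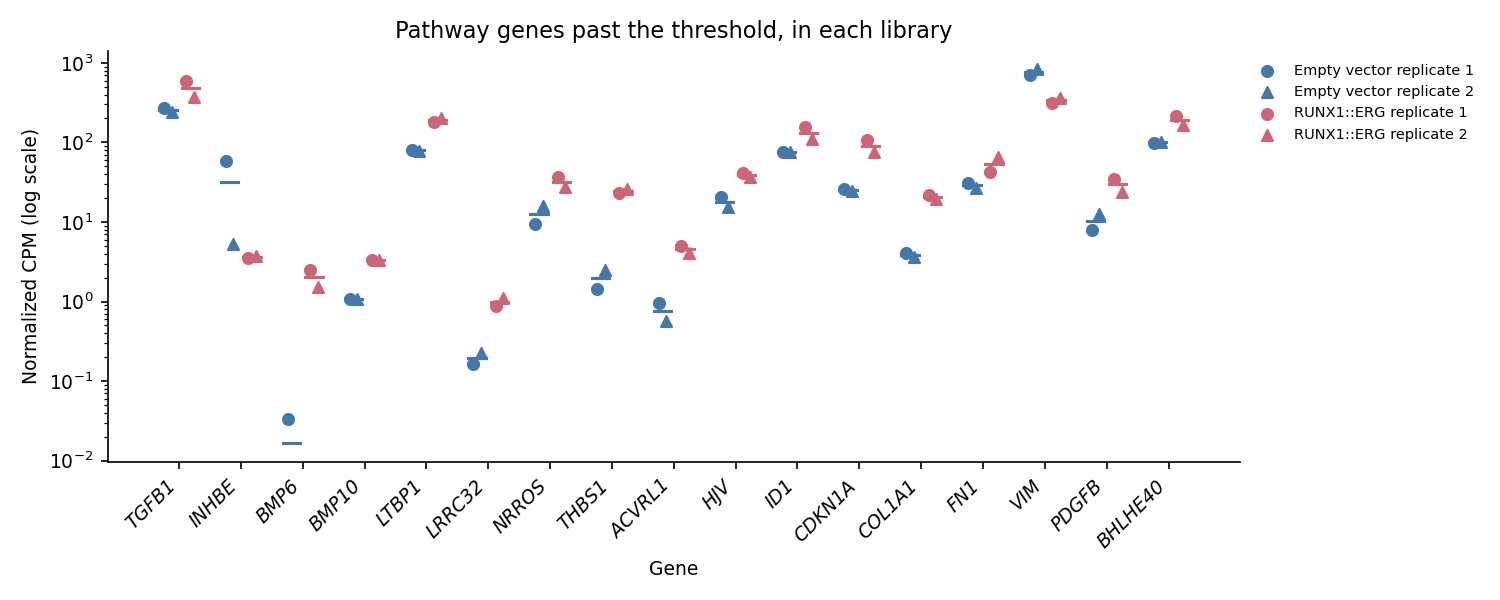
Normalized CPM (log axis) in each library of the 17 pathway genes past the threshold, with circles for replicate 1, triangles for replicate 2 and lines at group means. INHBE shows the gap between the empty vector libraries, at 58.6 and 5.28, and the value of 0 for BMP6 in empty vector replicate 2 cannot be drawn on this axis.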

How the data were processed

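For each library the authors deposited a table of unnormalized counts, in which NCBI gene numbers name the genes. The submitters' processing notes name HISAT2 2.2.1, featureCounts 2.0.1 and hg19; the annotation and strand setting are not given in the sources used here, so the reads SMAD5 shares with SMAD5-AS1 over 610 bases of exon, SMAD1 with SMAD1-AS1 over 376, SMAD3 with an antisense RNA over 182 and SMAD4 with another coding gene over 967 cannot be assigned with certainty. Symbols came from a RefSeq table of GRCh38.p14, which matched 92.2% of genes, positions from GENCODE v44 on GRCh37, and promoters from RefSeq.

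Counts were analysed in R 4.3.3 with edgeR 4.0.16 (TMM scaling, filterByExpr, quasi-likelihood test without a block, Benjamini-Hochberg over 15394 genes, threshold 0.05). Standard errors were the log2 fold change divided by the square root of F, and 95% intervals used the fit's degrees of freedom. DESeq2 1.42.0, limma 3.58.1 voom, other scalings and filters, counts halved because 66.7% to 68.9% of the counts from 1 to 10 were even, a replicate block and leaving out each library were alternatives. The groups of 2 were biological replicates by the methods. The procedure was also run on simulated counts with the same spread setting for all genes and no shared replicate effect. That run does not show how it performs on these libraries. An exact two-sided permutation test of 2 against 2 cannot go below p = 0.333.

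Named genes were the 10 members, ERG and RUNX1, every pathway gene past the threshold and 16 pathway genes fixed by name, of which 1 is not reported here. The members and lists were chosen with earlier results of these data known.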

Additional observations from a re-analysis of the deposited data

How the results depend on the processing

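With 2 libraries per group the spread rests on few values. The number of members called, 0 in the main comparison, was 1 with library totals, without a filter and with DESeq2, each time TGFBR1 (0.69, 0.64 and 0.64), and from 0 to 1 with a library left out. A fit without 1 library assumes that the lone library of its group varies like the others. With halved counts, other size factors, voom and at least 10 counts in every library it was 0.

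The replicate block called 2 members, TGFBR1 (0.65, adjusted p = 0.0089) and SMAD6 (0.66, adjusted p = 0.034), 5 lower pathway genes and 1733 genes in all (1082 higher, 651 lower). Deviations of same-numbered libraries correlated with r = 0.35 over genes, but no source ties equal numbers to 1 batch, and they were not taken as pairs.

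Near 0, SMAD4 (0.02) and SMAD7 (0.03) changed sign with library totals, and SMAD7 with voom (0.01) and halved counts (0.00). With a library left out, SMAD3 ran from -0.23 to 0.02, SMAD4 from -0.19 to 0.16, SMAD5 from -0.05 to 0.10, SMAD6 from 0.25 to 1.07, SMAD7 from -0.22 to 0.23, TGFBR1 from 0.51 to 0.80 and TGFBR2 from -0.22 to 1.25, and SKI from -0.19 to 0.08, ENG from -0.01 to 0.88, BMPR1A from -0.03 to 0.22 and ACVR1 from -0.07 to 0.44.

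Over all genes, 1500 were called without a filter (962 higher, 538 lower), 1194 with DESeq2 (398 lower) and 103 lower with library totals. With a library left out the count ran from 354 to 1355, from 268 to 981 higher and from 86 to 599 lower. Pathway calls ran from 11 to 23, from 9 to 19 higher and from 2 to 5 lower; 4 were lower without a filter, and 1 with library totals and with voom. INHBE was not called with library totals (-3.11), DESeq2 (-3.13), voom (-2.20) or the block (-2.33), nor FN1 with voom (0.88). The cause was not tested.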
